A study of Rattus norvegicus with 16 samples.

Results

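Cholesterol synthesis was followed through 8 genes of the rat hippocampus: Hmgcs1, Idi1, Fdps, Fdft1, Cyp51 and Dhcr7, which encode enzymes of the pathway, and Insig1 and Srebf2, which encode proteins that control it. They were taken as the array probes whose RefSeq transcript belongs to these symbols, with the brightest of a gene's probes standing for the gene, and they are 8 of 26565 genes tested. Of the 26565 genes, 9588 carried a symbol. The 8 genes have 15 probes in all, and each of the 15 was well above background on all 16 arrays.

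Mammalian cells build cholesterol from acetyl-CoA through mevalonate, isoprenoid diphosphates, squalene and lanosterol, and in the brain nearly all cholesterol is made locally because the blood-brain barrier keeps out plasma lipoproteins. The transcription factor encoded by Srebf2, SREBP2, is held in the endoplasmic reticulum by SCAP and the INSIG proteins while sterol is plentiful. When sterol is scarce it is carried to the Golgi, cleaved and sent to the nucleus, where it activates the genes of this pathway, Insig1 among them. SREBP2 works at promoters together with the CCAAT-binding factor NF-Y.

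Total RNA came from the right hippocampus of 16 male Wistar rats, 1 rat and 1 Agilent single-colour array each. A cannula was implanted over the right amygdala at 5 weeks of age and used 5 days later, so the hippocampus sampled lay on the infused side. Fe day 5, Fe day 15 and Fe day 30 rats (4 each) received 1.0 µl of 100 mM FeCl3 in saline at pH 2.2 and were killed 5, 15 or 30 days after it. This infusion is a model of post-traumatic epilepsy, in which iron from shed blood provokes recurrent limbic seizures. Control rats (4) received 1.0 µl of saline at pH 2.2 and were killed at day 15 alone, so Fe day 5 and Fe day 30 rats differ from control rats in age and in time since surgery as well as in iron. The series text reports recurrent seizures in Fe rats, with their rate not measured, and none in control rats.

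Levels are given as log2 signal minus the 75th percentile of the same array, which ranged from 553 to 924 signal units over the 16 arrays. A level of 0 is therefore the array's own 75th percentile, and a difference of 1 is a doubling. Between 74.2% and 81.6% of the 43379 transcript spots of an array were well above background, and none was saturated. The 7 hippocampal subfield markers were all measured, and their median difference from control was -0.59 in Fe day 5, -0.54 in Fe day 15 and -0.39 in Fe day 30 rats (log2). Fe day 5 rats 2 and 3 and Fe day 30 rat 3 stood apart through choroid plexus and meninges markers. Their median choroid plexus marker stood at 1.78, 3.41 and 6.88 above its control mean (log2), against -0.37 to 0.22 in control rats. RNA of a whole hippocampus mixes all its cells, so fewer cells of a type and less RNA per cell cannot be told apart in any value below. Microarray precision here is limited by the 4 arrays of a group.

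The 300 bases around the transcription start (250 before it and 50 after it, from RefSeq on the rat build GRCr8) are shown for 3 genes whose levels moved together over the arrays, Hmgcs1, Cyp51 and Dhcr7, and for Idi1, whose levels in Fe day 5 and Fe day 30 rats did not overlap with those in control rats. They are Hmgcs1 at chr2:53382054-53382353 on the plus strand, Cyp51 at chr4:30991443-30991742 on the plus strand, Dhcr7 at chr1:208444184-208444483 on the plus strand and Idi1 at chr17:66547475-66547774 on the minus strand. Capitals mark the NF-Y box CCAAT, which reads ATTGG where it lies on the opposite strand.
Hmgcs1: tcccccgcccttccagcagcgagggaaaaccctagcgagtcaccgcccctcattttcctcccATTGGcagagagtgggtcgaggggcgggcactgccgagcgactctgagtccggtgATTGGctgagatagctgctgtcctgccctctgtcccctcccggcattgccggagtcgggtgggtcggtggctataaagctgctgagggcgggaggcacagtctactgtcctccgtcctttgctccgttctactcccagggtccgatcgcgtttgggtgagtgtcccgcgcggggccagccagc
Cyp51: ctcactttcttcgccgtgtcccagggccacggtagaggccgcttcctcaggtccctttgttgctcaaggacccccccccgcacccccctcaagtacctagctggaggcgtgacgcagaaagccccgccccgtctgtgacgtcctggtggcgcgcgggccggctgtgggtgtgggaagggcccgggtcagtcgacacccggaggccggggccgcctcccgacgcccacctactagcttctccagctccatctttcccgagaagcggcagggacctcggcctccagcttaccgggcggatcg
Dhcr7: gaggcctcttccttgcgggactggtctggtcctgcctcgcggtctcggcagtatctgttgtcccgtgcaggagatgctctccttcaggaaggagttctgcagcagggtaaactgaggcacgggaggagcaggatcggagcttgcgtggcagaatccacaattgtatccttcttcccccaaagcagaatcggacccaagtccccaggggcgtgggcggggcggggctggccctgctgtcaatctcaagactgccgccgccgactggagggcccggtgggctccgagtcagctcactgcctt
Idi1: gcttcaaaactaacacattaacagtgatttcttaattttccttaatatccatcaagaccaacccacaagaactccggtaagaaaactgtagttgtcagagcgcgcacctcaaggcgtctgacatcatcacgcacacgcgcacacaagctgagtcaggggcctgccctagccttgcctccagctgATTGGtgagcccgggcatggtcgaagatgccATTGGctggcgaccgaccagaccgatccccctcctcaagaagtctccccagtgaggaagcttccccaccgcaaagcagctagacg

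Windows were found for 7 of the 8 genes, all but Fdft1. Both strands were searched for CCAAT and for TCACNCCAC, a core of the sterol regulatory element that SREBP2 binds; these motifs do not overlap. CCAAT was in 5 of the 7 windows, against 37.494% of 33469 rat promoter windows of the same length. Hmgcs1 held it at -188 and -133, Idi1 at -66 and -35, Fdps at -130 and -85, Insig1 at -193 and Srebf2 at -129 (first base relative to the start), while the Cyp51 and Dhcr7 windows held none. TCACNCCAC was in 0 of the 7 windows, against 1.117% of all windows. A match is a run of letters and no measured binding site, and nothing about either factor follows from a window without one.

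No gene of the 8 passed the test in any comparison. Each Fe day was set against control, and the Fe days against each other, with limma over all 26565 genes and Benjamini-Hochberg adjustment, two-sided, with a call at an adjusted p under 0.05. Of the 8, 0 were called in Fe day 5 against control (0% of all genes were), 0 in Fe day 15 (0%) and 0 in Fe day 30 (0.00753%, which is 2 genes, both lower). At an unadjusted p under 0.05, limma had 1 of the 8 in Fe day 5 (10.3% of all genes), 1 in Fe day 15 (11.5%) and 1 in Fe day 30 (7.77%), shares close to those of all genes. These were Idi1, Srebf2 and Idi1 again. Between Fe groups 0 of the 8 were called (0% of all genes in each comparison), with an unadjusted limma p under 0.05 for Insig1 in Fe day 15 against Fe day 5 (7.2% of genes), Idi1 in Fe day 30 against Fe day 15 (6.49%) and none in Fe day 30 against Fe day 5 (2.96%). The F-test over the 4 groups called 0 genes, and Idi1 alone of the 8 had an unadjusted p under 0.05 (8.34% of genes, adjusted p = 0.56).

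By sign, 5 of the 8 were higher and 3 lower in Fe day 5 rats than in control rats, with a median difference of 0.067 (log2), against 45.8% of all genes higher and a median of -0.017. In Fe day 15 rats 4 were higher and 4 lower, with a median of -0.012, against 50.3% and 0.0014 over all genes. In Fe day 30 rats 3 were higher and 5 lower, with a median of -0.022, against 46.6% and -0.013. The largest difference of a member from control in any Fe group was 0.29, that of Idi1 in Fe day 30 rats.

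**Figure D1:**
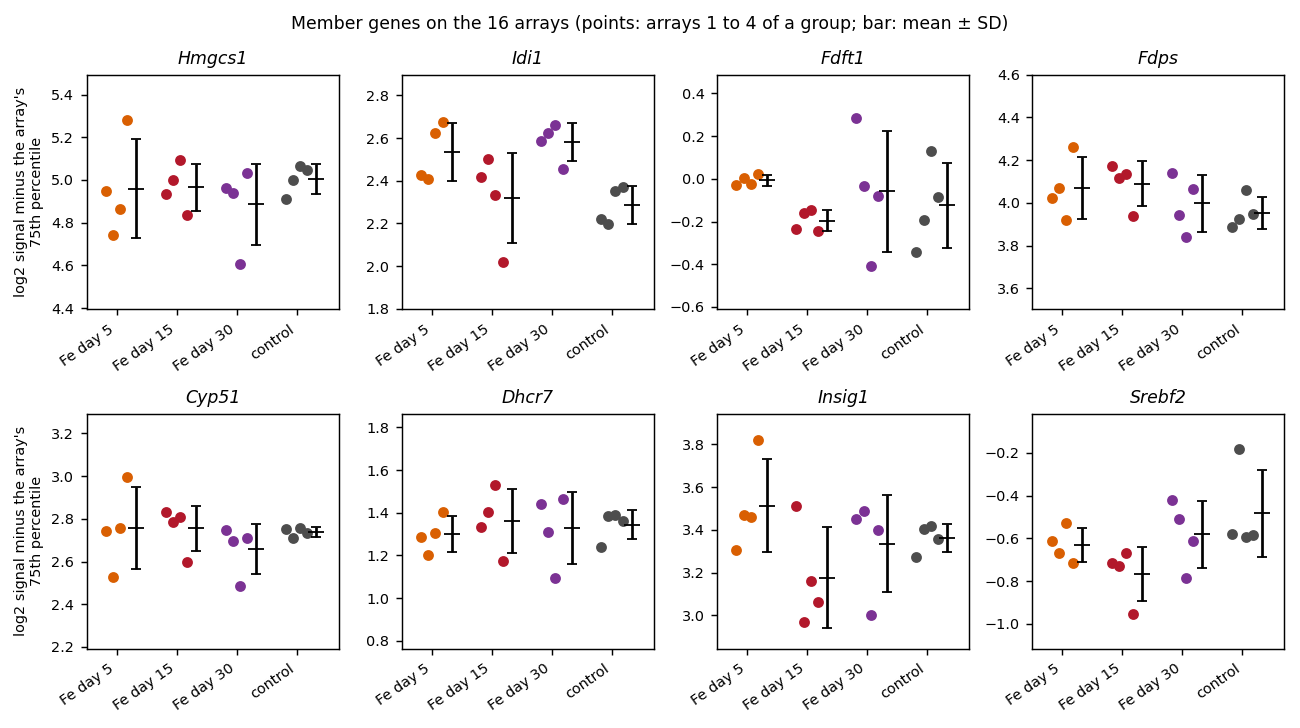
Level of each of the 8 genes on every array (vertical axis, log2 signal minus the array's 75th percentile, each panel with its own range), with points for the 4 arrays of Fe day 5, Fe day 15, Fe day 30 and control and bars for mean ± SD. Idi1 sits above all control points in Fe day 5 and Fe day 30 rats, and Srebf2 sits below them in Fe day 15 rats.

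Hmgcs1 encodes the cytosolic HMG-CoA synthase, an early enzyme of the mevalonate pathway. Its level was 4.95, 4.74, 4.87 and 5.28 in Fe day 5 rats 1 to 4, 4.93, 5.00, 5.09 and 4.84 in Fe day 15 rats, 4.96, 4.94, 4.61 and 5.03 in Fe day 30 rats, and 4.91, 5.00, 5.07 and 5.05 in control rats. The highest and the second lowest values were both Fe day 5 rats, and all groups overlapped. Its differences from control were -0.05 ± 0.11 (SE) in Fe day 5, -0.04 in Fe day 15 and -0.12 in Fe day 30 rats, and the 95% interval of the first ran from -0.29 to 0.20. A second Hmgcs1 probe gave 0.08, -0.13 and -0.17, so the sign at day 5 depended on the probe.

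Idi1 encodes isopentenyl diphosphate isomerase, which turns isopentenyl diphosphate into its dimethylallyl isomer. It stood at 2.43, 2.41, 2.62 and 2.68 in Fe day 5 rats, 2.42, 2.50, 2.33 and 2.02 in Fe day 15 rats, 2.58, 2.62, 2.66 and 2.46 in Fe day 30 rats, and 2.22, 2.20, 2.35 and 2.37 in control rats. Every Fe day 5 and every Fe day 30 rat was above every control rat, whereas Fe day 15 rats spanned the control range. All arrays of the Fe group lay above all control arrays for 2.75% of genes at day 5 and for 2.62% at day 30.

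Idi1 was 1.19-fold as high in Fe day 5 rats as in control rats, a difference of 0.25 ± 0.10 (log2, SE, n = 4 each) with a limma p of 0.030 and an adjusted p of 0.47. In Fe day 30 rats it was 1.23-fold as high as in control rats, 0.29 ± 0.10, with a limma p of 0.012 and an adjusted p of 0.60. In Fe day 15 rats the difference was 0.03, with a 95% interval from -0.19 to 0.25. Fe day 30 rats were above Fe day 15 rats by 0.26 ± 0.10 (limma adjusted p = 0.71), and their values overlapped. The second Idi1 probe gave 0.28, 0.15 and 0.34 at days 5, 15 and 30, and followed the first over the arrays with r = 0.927.

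**Figure D2:**
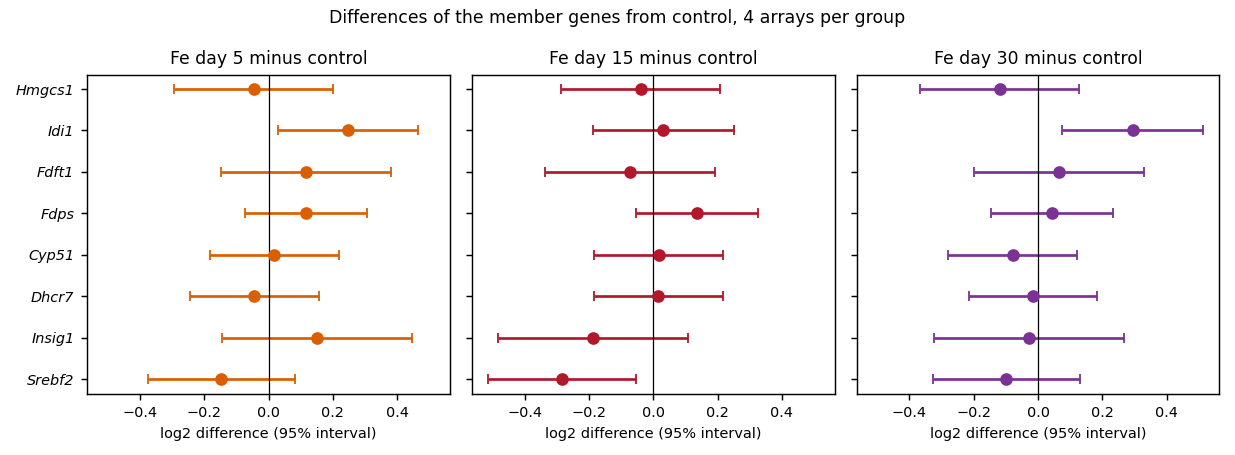
Difference of each gene from control (horizontal axis, log2, positive where the Fe group is higher) in Fe day 5, Fe day 15 and Fe day 30 rats, with points for the limma estimate and bars for its 95% interval before any adjustment. Intervals that do not cross 0 are those of Idi1 in Fe day 5 and Fe day 30 rats and of Srebf2 in Fe day 15 rats.

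Fdps encodes farnesyl diphosphate synthase, whose product also feeds protein prenylation. Its levels ranged from 3.92 to 4.26 in Fe day 5 rats, from 3.94 to 4.17 in Fe day 15 rats, from 3.84 to 4.14 in Fe day 30 rats and from 3.88 to 4.06 in control rats. The differences from control were 0.12 ± 0.09, 0.14 ± 0.09 and 0.04 ± 0.09 (SE) at days 5, 15 and 30, all within the spread. The second Fdps probe gave 0.17, 0.13 and 0.06.

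Fdft1 encodes squalene synthase, the first enzyme committed to sterols. Its level was -0.03, 0.01, -0.03 and 0.02 in Fe day 5 rats, -0.23, -0.16, -0.15 and -0.25 in Fe day 15 rats, 0.29, -0.03, -0.41 and -0.08 in Fe day 30 rats, and -0.34, -0.19, 0.13 and -0.08 in control rats. Both early Fe groups were narrow (SD 0.025 and 0.050) beside Fe day 30 and control rats (SD 0.28 and 0.20). Every Fe day 15 rat was below every Fe day 5 rat, as was so for 1.64% of genes. The difference was -0.19 ± 0.12, with a limma p of 0.15 and an adjusted p of 0.79, and neither group stood apart from control (0.12 and -0.07).

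Cyp51 encodes lanosterol demethylase, the first enzyme to act on the sterol ring. Its levels were 2.74, 2.53, 2.76 and 3.00 in Fe day 5 rats, 2.83, 2.79, 2.81 and 2.60 in Fe day 15 rats, 2.75, 2.70, 2.49 and 2.71 in Fe day 30 rats, and 2.75, 2.71, 2.76 and 2.73 in control rats. Control rats were close together (SD 0.022) and lay inside the range of Fe day 5 and of Fe day 15 rats. The differences from control were 0.02, 0.02 and -0.08 ± 0.09, and the 95% interval of the last ran from -0.28 to 0.12.

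Dhcr7 encodes 7-dehydrocholesterol reductase, which makes cholesterol in the last step of one branch of the pathway. Its levels were 1.29, 1.20, 1.31 and 1.40 in Fe day 5 rats, 1.33, 1.40, 1.53 and 1.17 in Fe day 15 rats, 1.44, 1.31, 1.09 and 1.46 in Fe day 30 rats, and 1.24, 1.38, 1.39 and 1.36 in control rats. The groups overlapped throughout. The differences from control were -0.04, 0.02 and -0.02 ± 0.09, the smallest set among the 8 genes, and the 95% interval at day 15 ran from -0.18 to 0.22.

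Insig1 encodes the endoplasmic reticulum protein that retains SCAP and SREBP2 and is itself a target of SREBP2. It stood at 3.31, 3.47, 3.46 and 3.82 in Fe day 5 rats, 3.51, 2.97, 3.16 and 3.06 in Fe day 15 rats, 3.45, 3.49, 3.00 and 3.40 in Fe day 30 rats, and 3.27, 3.41, 3.42 and 3.36 in control rats. The 4 lowest values were 3 of the Fe day 15 rats and Fe day 30 rat 3, while Fe day 15 rat 1 was above every control rat. Its differences from control were 0.15 ± 0.14, -0.19 ± 0.14 and -0.03 ± 0.14 at days 5, 15 and 30. Fe day 15 rats were below Fe day 5 rats by 0.34 ± 0.14, the largest difference between groups for any of the 8, with a limma p of 0.027 and an adjusted p of 0.61. That contrast was -0.26, -0.32 and -0.41 on the other 3 Insig1 probes.

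Srebf2 encodes the precursor of SREBP2. Its level was -0.61, -0.67, -0.53 and -0.71 in Fe day 5 rats, -0.72, -0.73, -0.67 and -0.95 in Fe day 15 rats, -0.42, -0.51, -0.79 and -0.61 in Fe day 30 rats, and -0.58, -0.18, -0.59 and -0.58 in control rats. Control rat 2 stood alone above the other 3, and every Fe day 15 rat was below every control rat, as was so for 5.73% of genes. Srebf2 was 0.82-fold as high in Fe day 15 rats as in control rats, a difference of -0.28 ± 0.11 (log2, SE) with a limma p of 0.019 and an adjusted p of 0.36. Without control rat 2 the difference was -0.18. On the second Srebf2 probe it was -0.19, and there the groups overlapped. Fe day 5 and Fe day 30 rats differed from control by -0.15 and -0.10.

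Arrays shared slides, and each array has a position on its slide, both per the file headers. All 4 control arrays and Fe day 5 rats 1 to 3 lay at position 1, while all Fe day 15 arrays, Fe day 5 rat 4 and Fe day 30 rats 1 and 2 lay at position 2. Fe day 30 rats 3 and 4 lay at position 3. Positions 1 and 2 are thus compared within a group only in Fe day 5 rats, where rat 4 alone lay at position 2, and the values with position as a block rest on that rat. With position as a block, Idi1 in Fe day 30 against control was 0.13, Srebf2 in Fe day 15 against control was -0.17 and Insig1 in Fe day 15 against Fe day 5 was -0.64. Hmgcs1 then stood at -0.47 in Fe day 15 and -0.48 in Fe day 30 rats against control. None of the 8 was called with that block. With slide as a block the values were 0.36 for Idi1 in Fe day 5, 0.33 for Idi1 in Fe day 30, -0.29 for Srebf2 in Fe day 15, all against control, and -0.26 for Insig1 in Fe day 15 against Fe day 5.

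Within single slides the Fe arrays could be set against a control array of the same slide in 6 cases. These use 4 control arrays, since control rats 2 and 3 each serve for 2 Fe rats. In all 6 cases the control array lay at position 1 and the Fe array at position 2 or 3. Each difference is therefore also one between positions. Idi1 was higher in the Fe rat in 5 of the 6 cases, by 0.10 to 0.46, and differed by -0.04 in Fe day 15 rat 3. Fdps was also higher in 5 of the 6, by 0.0076 to 0.38, and differed by -0.08 in Fe day 30 rat 3. Srebf2 was lower in the Fe rat in all 6, by values between -0.61 and -0.02, and both of the largest gaps were to control rat 2. How many of all genes reach such counts was not examined. Insig1 was 0.55 higher in Fe day 5 rat 4 than in control rat 1, and differed by 0.10, -0.45 and -0.19 in Fe day 15 rats 1, 2 and 3 and by -0.41 and -0.02 in Fe day 30 rats 3 and 4.

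**Figure D3:**
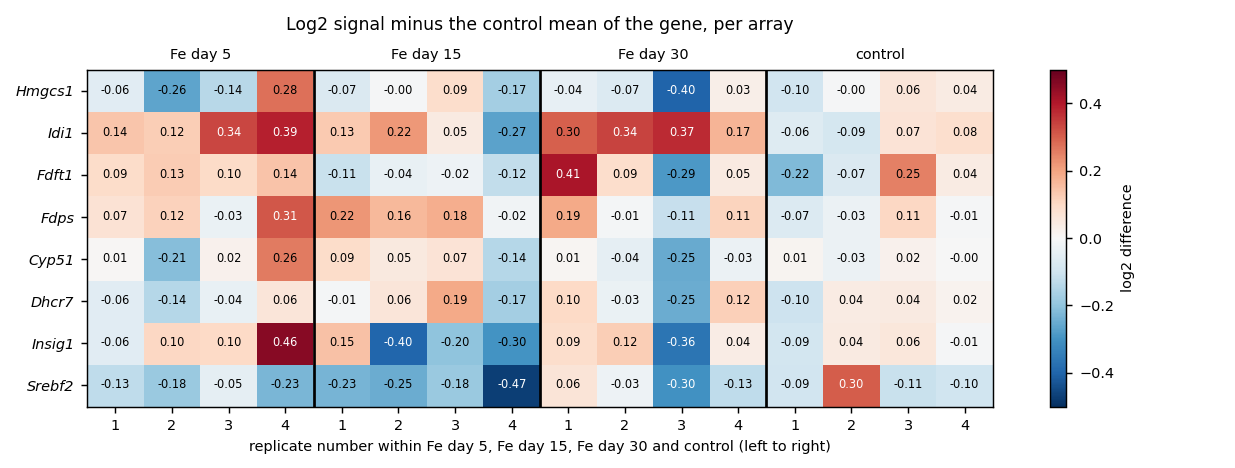
Log2 level of each gene on each array minus the gene's mean in control rats (colour and printed value), with genes down the page and rats 1 to 4 of Fe day 5, Fe day 15, Fe day 30 and control from left to right. Fe day 5 rat 4 is red for all genes but Srebf2, and Fe day 30 rat 3 is blue for all but Idi1.

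Over single arrays the median of the 8 genes relative to their control means ranged from -0.27 to 0.27 (log2). In Fe day 5 rat 4, 7 of the 8 genes were above their control mean, with a median of 0.27 (log2), and Srebf2 was below it. In Fe day 15 rat 4, 0 of the 8 were above, with a median of -0.17. In Fe day 30 rat 3 the median was -0.27, with Idi1 alone above, at 0.37. The other 13 arrays had medians between -0.09 and 0.09.

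These 3 arrays also differed in markers of cells. In Fe day 30 rat 3 the choroid plexus, meninges and microglia marker medians stood at 6.88, 3.37 and 0.83 above their control means. In Fe day 15 rat 4 they stood at 1.22, 1.34 and 1.02, and the hippocampal subfield markers at -1.06. Fe day 5 rat 4 had the highest oligodendrocyte marker median, 0.75. Fe day 15 rats 1 and 3 had oligodendrocyte marker medians of 0.58 and 0.44, with medians of 0.041 and 0.058 for the 8 genes. Fe day 5 rats 2 and 3, with choroid plexus medians of 1.78 and 3.41 and meninges medians of 4.55 and 2.71, had medians of -0.018 and -0.0061 for the 8 genes. Their part in the levels of the cholesterol genes was not tested. Without Fe day 5 rats 2 and 3 and Fe day 30 rat 3, the median difference of the 8 genes from control was 0.13 at day 5 and 0.073 at day 30, and Idi1 differed by 0.26 and 0.27. That leaves 2 Fe day 5 rats, rat 4 among them. Leaving out single rats gave day 5 medians between -0.0064, without Fe day 5 rat 4, and 0.10, and day 30 medians between -0.060 and 0.073, the last without Fe day 30 rat 3, so the sign of both rested on single rats.

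Over the 16 arrays 27 of the 28 pairs of the 8 genes had a positive Pearson correlation, with a median r of 0.39, and 6 pairs (21.4%) were above 0.6. Over all 45960078 pairs of genes with a symbol the median was 0.012, with 51.2% positive and 4.62% above 0.6. Deviations from the group means remove differences between groups. On them the median of the 28 was 0.51 and all were positive, against a median of 0.014 and 51.4% positive over all pairs. The 28 pairs come from 8 genes and are not 28 separate observations. Points of a pair share the array, its scaling and its tissue sample.

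The 6 pairs above 0.6 were all those among Hmgcs1, Fdps, Cyp51 and Dhcr7, and they were the pairs that passed in the family of 28 (permutation test with 100000 resamples, two-sided, Benjamini-Hochberg). Hmgcs1 and Cyp51 had r = 0.880 (permutation p = 4e-05, adjusted 0.00112) with rho = 0.568 (adjusted permutation p = 0.121). Hmgcs1 and Dhcr7 had r = 0.816 (permutation p = 0.00019, adjusted 0.00266) with rho = 0.868 (adjusted permutation p = 0.00056), and no other pair passed by rank. Cyp51 and Dhcr7 had r = 0.690 (adjusted permutation p = 0.0301) with rho = 0.559. The 3 pairs of Fdps had r = 0.659 with Cyp51, 0.635 with Hmgcs1 and 0.624 with Dhcr7, with rho of 0.568, 0.547 and 0.659. On deviations from group means 6 pairs also passed, with Fdft1 and Fdps (r = 0.659, adjusted permutation p = 0.0199) in place of Fdps and Cyp51 (r = 0.704, adjusted permutation p = 0.058). The block of 4 genes depended on the scaling. With quantile normalization only Hmgcs1 with Cyp51 (r = 0.790) and Hmgcs1 with Dhcr7 (r = 0.747) stayed above 0.6. Cyp51 and Dhcr7 then had 0.483, and Fdps had 0.546 with Cyp51, 0.376 with Hmgcs1 and 0.459 with Dhcr7.

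**Figure D4:**
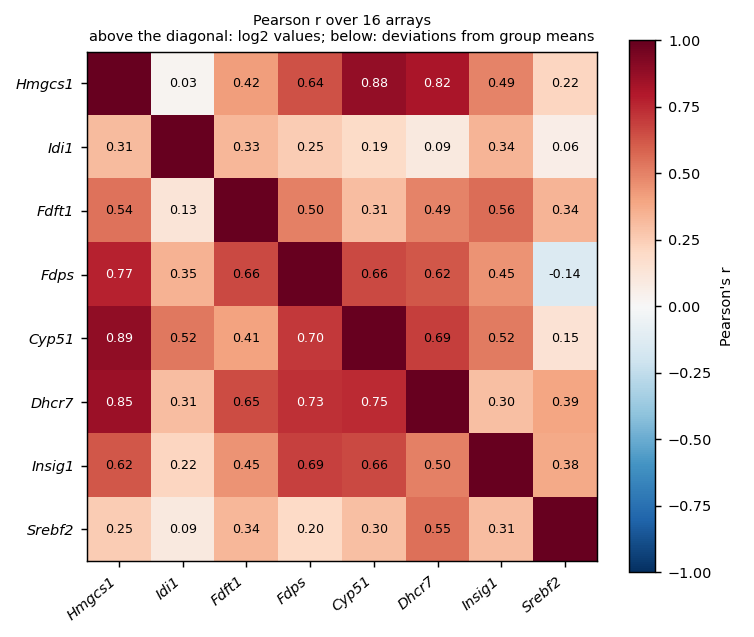
Pearson r between each pair of the 8 genes over 16 arrays, from log2 values above the diagonal and from deviations from group means below it (colour scale from -1 to 1). Hmgcs1, Fdps, Cyp51 and Dhcr7 hold the highest values, and the rows of Idi1 and Srebf2 are pale.

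Hmgcs1 and Dhcr7 kept r = 0.849 without Fe day 5 rat 4 and Fe day 30 rat 3, the arrays farthest from the Hmgcs1 median, and Hmgcs1 and Cyp51 had 0.683. Without the same 2 arrays Fdps had 0.252 with Hmgcs1, 0.315 with Cyp51 and 0.524 with Dhcr7. Leaving out Fe day 5 rats 2 and 3 and Fe day 30 rat 3, which keeps Fe day 5 rat 4, gave Fdps 0.626, 0.779 and 0.587 with these genes. Hmgcs1 and Cyp51 then had 0.799, Hmgcs1 and Dhcr7 had 0.647, and Cyp51 and Dhcr7 had 0.437. At position 1 on the slide (7 arrays) r was 0.892 for Hmgcs1 and Dhcr7, 0.711 for Hmgcs1 and Cyp51, and 0.580 for Cyp51 and Dhcr7. At position 2 (7 arrays) it was 0.618, 0.904 and 0.581. Fdps did not keep its relations within position 1, where r was -0.140 with Hmgcs1, -0.503 with Cyp51 and -0.117 with Dhcr7, against 0.764, 0.918 and 0.653 at position 2. Slides hold too few arrays for a value each, and on deviations from both group and slide means (6 residual degrees of freedom) the median r of the 28 pairs was 0.74.

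Idi1 and Srebf2 had the lowest correlations with the others over all 16 arrays. The median r of Idi1 with the other 7 genes was 0.19 (0.028 to 0.338), and Hmgcs1 and Idi1, which act close together in the pathway, had r = 0.028 (permutation p = 0.92). The values of Idi1 depended on the arrays. Without Fe day 5 rats 2 and 3 and Fe day 30 rat 3 its r was 0.52 with Hmgcs1 and lay between 0.47 and 0.62 for the 6 genes other than Srebf2. Without Fe day 5 rat 4 and Fe day 15 rat 4, the arrays farthest from the Idi1 median, its r with Fdft1 was 0.20. With Fdps, Cyp51, Dhcr7, Insig1 and Srebf2 its r then lay between -0.32 and -0.05. Its r with Hmgcs1 was 0.057 without Fe day 5 rat 4 and Fe day 30 rat 3. Hmgcs1 and Idi1 had r = 0.31 on deviations from group means, -0.35 at position 1 and 0.57 at position 2. For Srebf2 the median was 0.22 (-0.137 to 0.392), and none of its 7 pairs passed. Insig1 was closest to Fdft1, with r = 0.557 (permutation p = 0.0256, adjusted 0.102), and its r with Hmgcs1 was 0.493 with all arrays and -0.148 without the 2 farthest. Probes of one gene followed each other more closely than most pairs of genes, with r of 0.754 for Hmgcs1, 0.695 for Srebf2, 0.927 for Idi1, 0.939 for Fdps and 0.892 to 0.981 for Insig1.

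**Figure D5:**
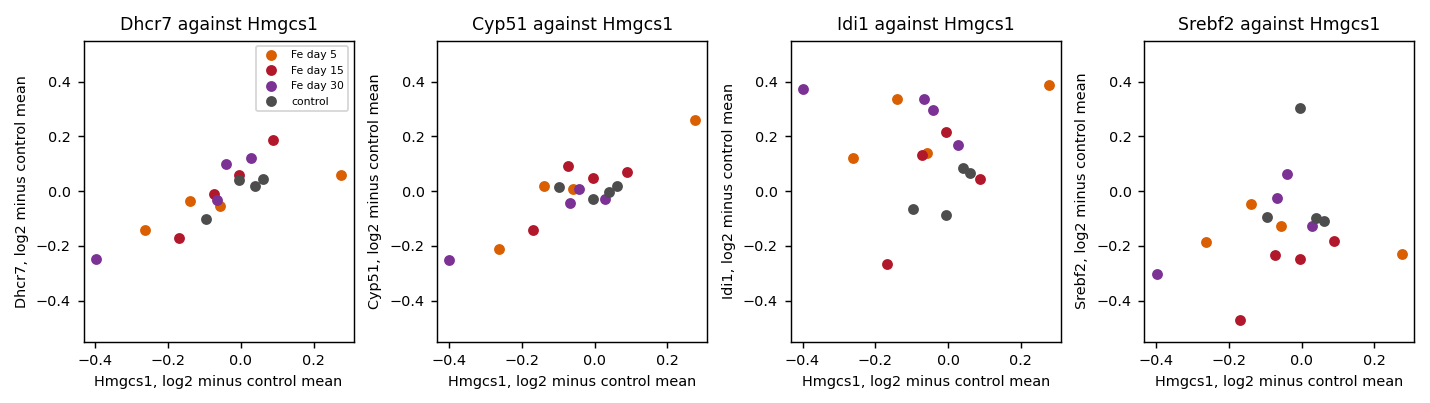
Levels of Dhcr7, Cyp51, Idi1 and Srebf2 (vertical axes) against Hmgcs1 (horizontal axis), each as log2 minus the gene's control mean, with 1 point per array coloured by Fe day 5, Fe day 15, Fe day 30 or control. Dhcr7 and Cyp51 run along a line with Hmgcs1 (r = 0.816 and 0.880), and Idi1 and Srebf2 scatter over all arrays (r = 0.028 and 0.217). The r of Idi1 is 0.52 without Fe day 5 rats 2 and 3 and Fe day 30 rat 3. It is 0.057 without Fe day 5 rat 4 and Fe day 30 rat 3.

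Among 9532 genes with a symbol outside the 8 and the pathway lists, those most like the mean of the 7 genes other than Srebf2 were Spryd7 (r = 0.885), Zcrb1 (0.876), Gnl3 (0.869), Mrpl20 (0.864), Phax (0.842) and Tpp2 (0.842), each over 16 arrays. Those most like Srebf2 were Rab3d (0.833), Pnn (0.822) and Dhdh (0.817). These are the highest of many correlations over few arrays and are given as a description.

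Of 16 other enzymes of cholesterol synthesis 15 were measured, and 0 were called by limma in any Fe group against control. They were higher than control for 7, 6 and 3 of 15 at days 5, 15 and 30, with medians of -0.00047, -0.048 and -0.076 (log2). Tm7sf2, a sterol reductase, had the lowest difference at day 5, -0.20 ± 0.10. At day 15 the extremes were Pmvk at 0.15 and Lss at -0.19, and at day 30 they were Sqle at 0.10 and Mvd at -0.17. Pmvk and Mvd act on mevalonate phosphates, Sqle oxidises squalene and Lss closes it to lanosterol. The mean of the 7 genes other than Srebf2 followed Sqle (r = 0.844) and Msmo1, a sterol demethylation enzyme (r = 0.837), most closely among these enzymes, and Pmvk least (r = 0.296). The 105 pairs of these enzymes had a median r of 0.38, close to that of the 8 genes.

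Of 9 genes for SREBP processing and degradation 5 were measured (Scap, Mbtps1, Mbtps2, Insig2 and Ufd1), with 0 called. They were higher than control for 1, 0 and 1 of 5, with medians of -0.14, -0.12 and -0.15. Scap, which escorts SREBP2, differed by -0.14, -0.13 and -0.15 ± 0.10 at days 5, 15 and 30. Mbtps1, the first protease to cut SREBP2, differed by -0.20 ± 0.08 at day 5 (limma adjusted p = 0.47), -0.12 at day 15 and -0.16 at day 30, and Mbtps2, the second, by -0.35 ± 0.18, -0.22 and -0.16. Insig2 lay at -0.06, -0.01 and -0.0044, and Ufd1, a part of the machinery that pulls proteins out of the membrane for degradation, at 0.04, -0.06 and 0.07.

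Uptake and other SREBP2 target genes were measured for 4 of 6, with 0 called and 0 of 4 higher than control at any day. Their medians were -0.085, -0.19 and -0.12. Stard4, a carrier of cholesterol inside cells, differed by -0.40 ± 0.30, -0.30 and -0.46, with wide errors beside these differences. Tmem97, a membrane protein of sterol transport, lay between -0.08 and -0.05 over the 3 days, and Acss2, which makes acetyl-CoA, between -0.05 and -0.01.

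Sterol export, storage and turnover were measured for 13 of 15 genes, with 0 called and 6, 6 and 8 higher than control. The largest differences were those of Ch25h, cholesterol 25-hydroxylase, at 0.97 ± 0.61 in Fe day 5 rats, and Lcat, which esterifies cholesterol, at 0.97 ± 0.47 in Fe day 15 and 0.63 in Fe day 30 rats. Apoe, the main brain apolipoprotein, differed by -0.19 ± 0.09 at day 5. Mylip, a ubiquitin ligase of sterol uptake, differed by -0.31 ± 0.09 at day 15 (limma adjusted p = 0.24), and Abcg1, a sterol exporter, by -0.20 ± 0.09 at day 30. Fatty acid synthesis, which the related factor SREBP1 drives, was measured for 11 of 12 genes, with 0 called and 3, 6 and 3 higher than control. Its extremes were Acly at 0.22 and Fads1 at -0.30 in Fe day 5 rats, Acly at 0.18 and Fads1 at -0.29 in Fe day 15 rats, and Fads2 at 0.14 and Scd at -0.15 in Fe day 30 rats.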

How the data were processed

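Gene expression was measured on 16 Agilent single-colour (Cy3) arrays, 1 rat each, in groups of 4. The deposited scanner files give, per the file headers, the processed signal intensity of Feature Extraction 9.5.3.1, already background-subtracted, with a mark of 0 or 1 for well above background, saturation and outliers. The authors' series table held the same values as the scanner files in 100% of 720288 entries (relative tolerance 1e-06). Spot intensities were taken to log2, and the array's 75th percentile over transcript spots was subtracted. The log2 values of the spots of one probe were then averaged, with outlier spots left out. Probes well above background on all arrays of some group were kept (30548). Probes were named by matching their accession to RefSeq, and the brightest probe stood for a gene.

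Differences were tested with limma 3.58.1 in R 4.3.3 over 26565 genes (12 residual degrees of freedom, median SE 0.1348 on the log2 scale), in 6 comparisons and an F-test over the 4 groups. The procedure was tested on simulated data. The limma p-values set differences between groups against the spread between rats, whose arrays shared slides. Correlations used permutation tests. Every member was named, as were genes of the pathway lists that were called or had the largest difference in each direction from control; Scap and Msmo1, and further days of Mbtps1, Mbtps2, Insig2, Ufd1, Stard4, Tmem97 and Acss2, were added after their values were seen. Some genes of the lists are not reported here by name. The members and lists were chosen with earlier results of these data known. Alternatives changed the background correction, scaling, filter, probe summary, weights, blocks and arrays left out.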

Additional observations from a re-analysis of the deposited data

Results flagged for a closer look

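Srebf2 in control rat 2 stood at -0.18 (log2 level relative to the array's 75th percentile), 0.30 above the control mean, while the other 3 control rats lay between -0.59 and -0.58. Its gap to the nearest control rat was 0.96 of the group's range, above Dixon's 95% critical value for 4 samples. The 8 genes in 4 groups gave 32 such checks, and chance passes about 1 in 20.

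Fdft1 was above the control mean by 0.12 in Fe day 5 rats, with all 4 rats higher, and differed from it by -0.07 in Fe day 15 rats, with all 4 rats lower. The contrast between both Fe groups was -0.19, with a limma adjusted p of 0.79.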

How the results depend on the processing

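None of the 8 genes was called under any alternative, and the lowest adjusted p of a member over all of them was 0.158 (Idi1 in Fe day 30 against control with array weights). Of 1296 recomputed member differences 84 changed sign, none of them over 0.136 in size as reported, and 22 moved by more than the gene's residual SD, all with slide position as a block. Position as a block, added after seeing the data, also gave a member median of -0.166 in Fe day 15 against control and -0.230 in Fe day 15 against Fe day 5.

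Counts over all genes were less stable. For Fe day 30 against control, 2 as reported, the count was 8 with quantile normalization, 25 with array weights, 17 with position as a block, and 0 with slide as a fixed block, without Fe day 5 rats 2 and 3 and Fe day 30 rat 3 (added after seeing the data) or with only the 2 groups compared. For Fe day 15 against control, 0 as reported, it was 184 with array weights, 15 with position, 2 with only the 2 groups, and 1 with no filter on dim probes or without those 3 arrays. For the F-test it was 1 with quantile normalization or no filter, 17 with array weights and 21 with position. Fe day 5 against control gave 1 with no filter. Fe day 15 against Fe day 5 gave 2 with array weights and 22 with position, Fe day 30 against Fe day 15 gave 10 with position, and Fe day 30 against Fe day 5 gave 26 with position and 1 with only the 2 groups. The cause of these moves was not tested.

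Leaving out each rat in turn gave 0 to 10 genes called in Fe day 15 against control, 0 to 9 in Fe day 30 against control, 0 to 13 in Fe day 15 against Fe day 5 and 0 to 2 in the F-test. Idi1 then ranged from 0.199 to 0.288 at day 5 and from 0.265 to 0.336 at day 30, and Srebf2 from -0.321 to -0.182 at day 15. The median correlation of the 28 pairs ranged from 0.263 to 0.461, was 0.238 without the 2 farthest arrays and 0.740 on deviations from group and slide means.

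Replicate numbers 1 to 4 are shared by the groups but pair no rats in the labels. Deviations of same-numbered rats correlated between -0.41 and 0.39, and 8 of 16 arrays correlated best with their own number. The best match was sought among arrays of the other groups, where 1 array in 4 carries the same number. The replicate block called 1 gene in Fe day 15 against control, not a member, and changed no call of the 8 genes.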

Other observations

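Genes of the pathway lists without a value in the tests included Lbr, Srebf1, Syvn1, Rnf139, Cyp46a1 and Npc1, for which no probe was matched, and Npc1l1 and Acacb, which were not well above background on all arrays of any group. Oligodendrocyte and myelin markers, from cells that make much of the brain's cholesterol, were measured for 11 of 12 genes with 0 called, and were higher than control for 10, 9 and 6 of 11 at days 5, 15 and 30 (medians 0.15, 0.27 and 0.0033, log2). Astrocyte markers were higher for 3, 7 and 4 of 9, and blood markers for 5 of 5 at each day, with medians of 1.22, 1.01 and 0.44 and 0 called.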
